A study of Mus musculus with 10 samples.

Results

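The 40 genes described here encode the ephrin, Slit and netrin axon guidance families, and none of the 38 that could be tested passed the test for a difference between Kif2a_cKO and control dorsal root ganglia. They were taken by symbol from the 23923 genes measured: 9 EphA receptors, 5 EphB receptors, 5 ephrin-As, 3 ephrin-Bs, 3 Slits, 3 Robos, 6 netrins and netrin-Gs, and 6 netrin receptors (Dcc, Neo1 and the Unc5 genes). Of the 40, 38 had enough reads to be tested, and Epha1 and Robo3 did not. In edgeR, Ephb1, Efnb3, Epha8 and Unc5b had lower means in Kif2a_cKO at an unadjusted p under 0.05, and Ntng1 a higher mean. Efnb3 and Ephb1 were also highest in the 3 control libraries that held the most spinal cord transcripts.

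RNA sequencing of the polyadenylated fraction was done on mouse dorsal root ganglia, which hold the cell bodies of sensory neurons next to the spinal cord. Both groups carried a floxed allele of Kif2a, which encodes a microtubule-depolymerising kinesin, on both chromosomes (Kif2a fl/fl), and both were 1 month old. The 5 samples of the group named Kif2a_cKO here also carried Avil cre, a recombinase driven by the advillin gene, which is active in sensory neurons, and the 5 controls had no cre. The presence of cre and the recombination of Kif2a cannot be told apart, and the labels do not say whether samples are separate animals, so a p-value covers the variation among the sequenced samples, which may be technical.

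Eph receptors are tyrosine kinases of the cell surface that bind ephrins on neighbouring cells. Ephrin-As are tied to the membrane by a lipid anchor and ephrin-Bs span it, and signals can run into both cells. Slits are secreted proteins that repel or branch axons through Robo receptors, and in mouse embryos they direct the forking of sensory axons as these enter the spinal cord. Netrin-1 is a secreted relative of laminin that attracts axons through Dcc and repels them when Unc5 receptors take part.

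Expression is given as CPM, reads per 1000000 of a library after edgeR TMM scaling, and levels are compared between genes as CPM per kb of exon length. A log2 fold change is Kif2a_cKO over control from the edgeR quasi-likelihood fit, an adjusted p is Benjamini-Hochberg over the 17439 genes tested, and a gene is called when it is under 0.05. Library totals ran from 17506135 to 73031457 counts. All 18 sensory neuron markers checked were measured, with a summed level between 13876 and 22480 CPM in controls and between 18188 and 23108 CPM in Kif2a_cKO. Kif2a itself averaged 70.2 ± 8.61 CPM for controls against 69.03 ± 4.44 CPM for Kif2a_cKO (SD, n = 5 per group), with a log2 fold change of -0.02 (SE 0.0872, unadjusted p = 0.799), and since the floxed exons are not given in the labels this sum over all exons does not check the deletion. Avil, whose promoter drives the cre, averaged 678 ± 149 CPM for controls against 383 ± 55.00 CPM for Kif2a_cKO (SD, n = 5 per group), with a log2 fold change of -0.82 (SE 0.156, unadjusted p = 0.000176), and was not called (adjusted p = 0.351). A list of 20 genes of oligodendrocytes, astrocytes and spinal neurons summed to 914, 2704 and 923 CPM in controls 1, 3 and 5, to 130 and 140 CPM in controls 2 and 4, and to between 110.0 and 411 CPM in Kif2a_cKO. Opalin, Olig2, Chat, Mnx1 and Slc32a1 of that list were at 0 in at least 1 library. The spinal cord score is the mean log2 CPM of the 18 genes of that list that were tested, without Chat and Mnx1. Genes of myelinating Schwann cells summed to between 30386 and 40877 CPM in controls and between 22009 and 34663 CPM in Kif2a_cKO, with all 13 markers lower on average. Of the 13, none was called and 9 were lower at an unadjusted p under 0.05, against 4.01% of all genes tested. Without controls 1, 3 and 5 all 13 stayed below 0. Mag then went from -1.05 to -0.15 and Mbp from -0.45 to -0.05, while Prx (-0.35 and -0.36) and Fa2h (-0.50 and -0.48) changed little. In bulk tissue fewer cells of a type and less RNA per cell cannot be told apart, and the part of Schwann cell content in the results was not tested.

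The 250 bases before the RefSeq start of Ephb1 and Epha8 (GRCm38.p6, minus strand) are shown because these were the Eph receptor genes at an unadjusted p under 0.05, both with lower means in Kif2a_cKO. Capitals mark GC boxes (GGGCGG, searched on both strands as GGGCGG and CCGCCC, overlapping matches counted separately), the letters bound by Sp1-type factors. The Ephb1 sequence is chr9:102354694-102354943 and the Epha8 sequence is chr4:136956817-136957066.
Ephb1: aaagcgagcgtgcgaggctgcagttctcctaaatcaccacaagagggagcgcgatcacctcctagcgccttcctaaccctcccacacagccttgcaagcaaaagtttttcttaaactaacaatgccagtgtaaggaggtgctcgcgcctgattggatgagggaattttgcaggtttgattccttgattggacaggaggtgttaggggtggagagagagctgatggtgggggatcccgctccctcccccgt
Epha8: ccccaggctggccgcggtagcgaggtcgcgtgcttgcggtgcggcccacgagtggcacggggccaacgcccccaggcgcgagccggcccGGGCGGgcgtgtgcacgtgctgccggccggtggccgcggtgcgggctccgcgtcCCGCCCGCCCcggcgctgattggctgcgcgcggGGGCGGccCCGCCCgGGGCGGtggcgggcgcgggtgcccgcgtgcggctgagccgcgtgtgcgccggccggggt
The Epha8 window held 6 GC boxes and 46 CpG dinucleotides, and the Ephb1 window held 0 GC boxes and 10 CpGs. Among the 32851 promoter windows of the same length in the table, 32.7% held a GC box and the median CpG count was 6. These are descriptions of the letters, and promoter activity was not measured.

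Levels per length differed widely within most families. Slit1 had the highest level of the 40, at 20.7 ± 3.84 in controls and 20.9 ± 4.42 in Kif2a_cKO CPM per kb (SD, n = 5 each), followed by Efna1 at 15.4 ± 2.14 in controls and 15.6 ± 2.98 in Kif2a_cKO and Ephb6 at 14.7 ± 1.76 in controls and 13.5 ± 0.596 in Kif2a_cKO. Efnb1 had 11.4 ± 1.08 in controls and 10.9 ± 1.29 in Kif2a_cKO CPM per kb, Robo2 9.03 ± 1.61 in controls and 9.37 ± 0.892 in Kif2a_cKO and Ntng2 7.85 ± 1.79 in controls and 8.48 ± 1.62 in Kif2a_cKO. Slit1 made up 89.5% ± 2.15 of the summed Slit level per kb in controls and 90.8% ± 2.40 in Kif2a_cKO, and Robo2 made up 90.1% ± 2.07 and 91.7% ± 0.346 of the Robo level. Ephb6, a receptor whose kinase domain is inactive, made up 71.1% ± 5.02 and 71.8% ± 2.76 of the EphB level, and Efna1 made up 62.8% ± 4.71 and 65.3% ± 2.95 of the ephrin-A level. These shares differed between the groups by less than 1 SD of the controls. EphA receptors were spread more evenly, with no member above 25.9% of their summed level in any library. Their summed level, 6.42 ± 1.05 CPM per kb in controls and 5.68 ± 0.352 in Kif2a_cKO, was below that of the EphB receptors, at 20.6 ± 1.44 and 18.8 ± 0.509. The exon length is the union of all annotated exons, so a gene with long rare exons has a lower value per kb.

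**Figure D1:**
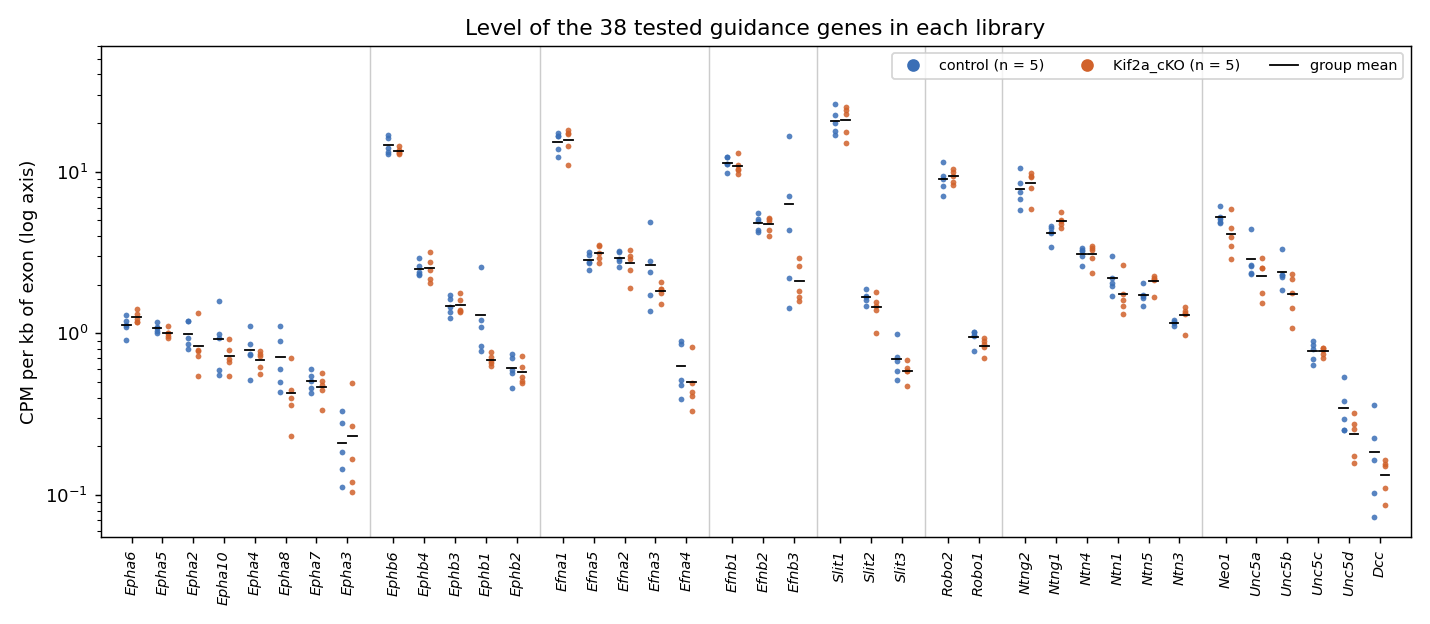
Level of each of the 38 tested members in every library, as CPM per kb of exon on a log axis, with controls in blue, Kif2a_cKO in orange and short lines at the group means (n = 5 each). Within each family the highest member is on the left, and Slit1, Efna1, Ephb6 and Efnb1 stand above 10 CPM per kb on average.

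No member was called by edgeR (lowest adjusted p = 0.703), where 0.0172% of all genes tested were called. Without adjustment 5 members (13.2% of 38) had a p under 0.05, 4 lower and 1 higher in Kif2a_cKO, against 6.98% of all genes tested (4.01% lower, 2.97% higher). DESeq2 called no member (lowest adjusted p = 0.185) where it called 0.170% of the genes with an adjusted p. It put 8 of the 38 members at an unadjusted p under 0.05 (those 5, Efna3, Neo1 and Unc5d), against 7.18% of all genes. limma-voom also called none (lowest adjusted p = 0.694), where it called 0.0229% of all genes. There 5 of the 38 (Epha8, Ephb1, Ntng1, Ntn1 and Ntn5) had an unadjusted p under 0.05, against 6.43% of all genes. In the authors' deposited table no member had a false discovery rate under 0.05, where 46 genes (0.192% of the table) did, and the lowest of a member was 0.137, for Ephb1. The log2 fold change was negative for 26 of the 38 members (68.4%) and its median was -0.12, while 47.9% of all genes tested were below 0 with a median of 0.01. The 6 netrin receptors were all below 0 (median -0.40) and 4 of the 6 netrins and netrin-Gs were above 0 (median 0.13). Without controls 1, 3 and 5 the median was -0.19 for the netrin receptors, with 5 of 6 below 0, and 0.04 for the netrins and netrin-Gs, with 3 of 6 below 0. The EphA receptors went from 6 of 8 below 0 (median -0.17) to 3 of 8 (median 0.05). Because the members were chosen with results of these data known, these counts carry no test.

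**Figure D2:**
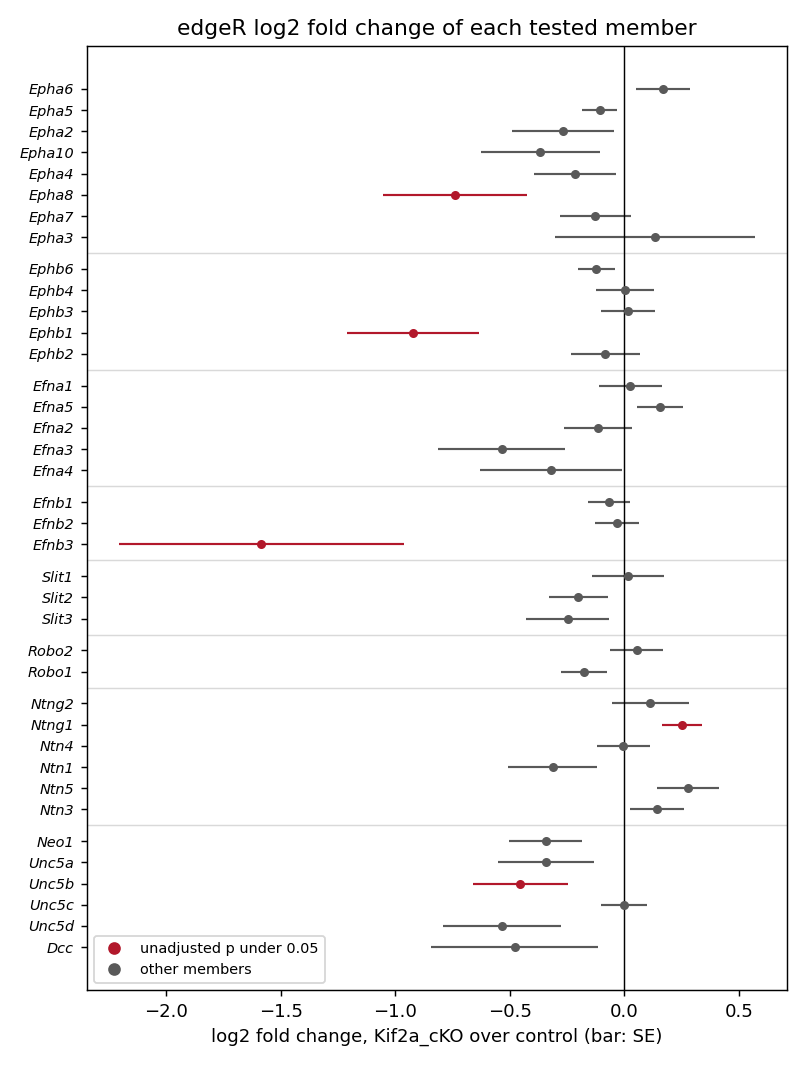
edgeR log2 fold change of Kif2a_cKO over control for each tested member, with bars of 1 SE. Ephb1, Efnb3, Epha8 and Unc5b lie below 0 and Ntng1 above 0 at an unadjusted p under 0.05 (red), and no member passed adjustment.

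Among the EphB receptors, Ephb1 had the clearest separation of the groups. Ephb1, a receptor for ephrin-Bs known from retinal axons that turn at the optic chiasm, lies on chromosome 9 from 101922128 to 102354693 on the minus strand (GRCm38). It measured 7.65, 5.41, 18.1, 5.82 and 8.49 CPM in controls 1 to 5 and 4.73, 4.99, 4.42, 5.37 and 4.58 CPM in Kif2a_cKO 1 to 5. Each Kif2a_cKO library was below each control, and Ephb1 was the only tested member whose groups did not overlap, where 0.436% of all genes tested were lower without overlap and 0.734% were higher without overlap. The closest libraries were Kif2a_cKO 4 (5.37 CPM) and control 2 (5.41 CPM). Divided by library totals alone, without their TMM factors of 0.991 and 0.971, these 2 libraries had the reverse order. The absence of overlap thus depends on the scaling. The Kif2a_cKO values spread far less than the controls. The means were 9.10 ± 5.21 CPM for controls against 4.82 ± 0.373 CPM for Kif2a_cKO (SD, n = 5 per group), a log2 fold change of -0.92 (SE 0.289, unadjusted p = 0.00786, adjusted p = 0.703). The unadjusted p was under 0.05 in each of the 10 fits that left out 1 library, with a log2 fold change between -1.08 and -0.53. Control 3 set much of its size, since without control 3 the log2 fold change was -0.53 (SE 0.152, unadjusted p = 0.00453). Without controls 1, 3 and 5 it was -0.22 (SE 0.153, unadjusted p = 0.185), and with the spinal cord score as a covariate it was -0.55 (SE 0.195, unadjusted p = 0.0143).

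Ephb6 and Ephb4 were the EphB receptors with the highest level per kb. Ephb6 lies on chromosome 6 from 41605482 to 41620509 on the plus strand and measured 53.02, 63.7, 48.8, 60.8 and 50.2 CPM in controls 1 to 5 and 51.4, 50.1, 49.4, 54.4 and 48.7 CPM in Kif2a_cKO 1 to 5. Controls 2 and 4 had the highest values, and the 5 Kif2a_cKO libraries lay within the range of the other 3 controls or close to it. The result was a log2 fold change of -0.12 (SE 0.0809, unadjusted p = 0.157, adjusted p = 0.771), and the 95% interval of the change in level was -18.6% to 3.77%. Without controls 1, 3 and 5 the log2 fold change was -0.30 (SE 0.0824, unadjusted p = 0.00472), and Ephb6 was then the only member at an unadjusted p under 0.05, where 3.33% of all genes were (adjusted p = 0.991). Ephb4, the EphB receptor of venous endothelium, measured 10.7, 11.1, 13.5, 10.9 and 12.1 CPM in controls 1 to 5 and 9.46, 12.9, 11.5, 10.1 and 14.8 CPM in Kif2a_cKO 1 to 5. The groups overlapped, with a log2 fold change of 0.00 (SE 0.126, unadjusted p = 0.9752, adjusted p = 0.998) and an interval of -16.97% to 21.1%. Of 14 endothelial and mural markers, none had an unadjusted p under 0.05, and their summed level was 242 to 436 CPM in controls and 248 to 411 CPM in Kif2a_cKO. The log2 fold change was -0.08 (SE 0.151) for Ephb2 and 0.02 (SE 0.118) for Ephb3.

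The EphA receptors had low levels, and Epha8 had the largest difference among them. Epha8 lies on chromosome 4 from 136929419 to 136956816 on the minus strand. It measured 2.37, 2.04, 5.25, 2.85 and 4.22 CPM in controls 1 to 5 and 1.09, 1.87, 1.70, 2.10 and 3.30 CPM in Kif2a_cKO 1 to 5. Controls 3 and 5 were the highest libraries and Kif2a_cKO 1 the lowest, and Kif2a_cKO 5 lay above controls 1, 2 and 4, so the groups overlapped. The means were 3.35 ± 1.35 CPM for controls against 2.01 ± 0.813 CPM for Kif2a_cKO (SD, n = 5 per group), a log2 fold change of -0.74 (SE 0.314, unadjusted p = 0.0358, adjusted p = 0.703). The unadjusted p was under 0.05 in 4 of the 10 fits that left out 1 library, with a highest p of 0.0993 without control 3. Leaving out controls 1, 3 and 5 gave -0.27 (SE 0.361, unadjusted p = 0.464). Its counts ran from 37 to 178 per library, so counting error adds to its spread.

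Epha6 and Epha5 had the highest EphA levels per kb. Epha6 measured 5.99, 6.27, 4.81, 6.84 and 5.80 CPM in controls 1 to 5 and 7.46, 6.21, 6.47, 6.25 and 6.94 CPM in Kif2a_cKO 1 to 5, lowest in control 3 and highest in Kif2a_cKO 1, with a log2 fold change of 0.17 (SE 0.117, unadjusted p = 0.174, adjusted p = 0.789). Epha5 measured 18.1, 18.4, 19.8, 16.8 and 17.2 CPM in controls 1 to 5 and 15.6, 16.8, 18.7, 16.1 and 16.7 CPM in Kif2a_cKO 1 to 5, within a narrow range in both groups, with a log2 fold change of -0.11 (SE 0.0763, unadjusted p = 0.182, adjusted p = 0.795). Of the other EphA genes tested, Epha10, an EphA receptor without kinase activity, gave -0.37 (SE 0.260) on the log2 scale, Epha2 -0.27 (SE 0.222), Epha4, which binds ephrins of both classes, -0.22 (SE 0.179), Epha7 -0.13 (SE 0.154) and Epha3 0.13 (SE 0.436). Epha10 measured 6.71, 11.4 and 7.11 CPM in controls 1, 3 and 5, against 4.27 and 3.99 CPM in controls 2 and 4 and 3.91 to 6.61 CPM in Kif2a_cKO. Its log2 fold change was 0.34 (SE 0.214, unadjusted p = 0.147) without controls 1, 3 and 5. Epha1 had 3 to 18 counts per library and was not tested.

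Of the ephrin-Bs, Efnb3 varied most between libraries. Efnb3, the ephrin known from the midline of the mouse spinal cord, lies on chromosome 11 from 69554092 to 69560205 on the minus strand. It measured 13.9, 4.55, 53.2, 7.01 and 22.4 CPM in controls 1 to 5 and 5.34, 5.06, 5.81, 8.30 and 9.27 CPM in Kif2a_cKO 1 to 5. Controls 3, 5 and 1 were the highest of the 10 libraries, in the order of their spinal cord scores (6.23, 4.70 and 4.52). The scores of controls 5 and 1 were close. Controls 2 and 4 lay within or below the Kif2a_cKO range. The means were 20.2 ± 19.7 CPM for controls against 6.76 ± 1.90 CPM for Kif2a_cKO (SD, n = 5 per group), a log2 fold change of -1.58 (SE 0.624, unadjusted p = 0.0320, adjusted p = 0.703). Without controls 1, 3 and 5 the sign was the opposite, at 0.24 (SE 0.276, unadjusted p = 0.407), and with the spinal cord score as a covariate the log2 fold change was -0.56 (SE 0.261, unadjusted p = 0.0541). Without control 3 alone it was -0.86 (SE 0.428, unadjusted p = 0.0755). Of the 10 fits of Efnb3 that left out 1 library, 4 had an unadjusted p under 0.05. For Efnb3 limma-voom gave -0.90 (SE 0.548, unadjusted p = 0.137), and edgeR with the replicate number as a block gave -1.11 (SE 0.608, unadjusted p = 0.132). Efnb3 made up 25.03% ± 18.1 of the summed ephrin-B level per kb in controls and 12.1% ± 3.63 in Kif2a_cKO (SD, n = 5 each), with 51.8% in control 3.

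Efnb1 and Efnb2 differed little between libraries. Efnb1, on chromosome X from 99136130 to 99148991 on the plus strand, measured 38.3, 42.8, 38.6, 42.9 and 33.9 CPM in controls 1 to 5 and 38.2, 44.8, 33.2, 35.97 and 35.4 CPM in Kif2a_cKO 1 to 5. Its groups overlapped, with a log2 fold change of -0.07 (SE 0.0911, unadjusted p = 0.485, adjusted p = 0.934) and a 95% interval of -16.6% to 9.55%. Efnb2, the ephrin of arterial endothelium and a partner of Ephb4, measured 34.1, 38.1, 29.7, 34.8 and 28.9 CPM in controls 1 to 5 and 34.2, 35.5, 30.04, 34.8 and 27.3 CPM in Kif2a_cKO 1 to 5. It too overlapped between the groups, with a log2 fold change of -0.03 (SE 0.0962, unadjusted p = 0.750, adjusted p = 0.978) and an interval of -15.3% to 13.04%.

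The ephrin-A genes Efna1, Efna3 and Efna4 lie on chromosome 3 between 89271733 and 89338028, all on the minus strand. Efna1 measured 30.3, 31.8, 25.4, 30.5 and 22.7 CPM in controls 1 to 5 and 26.5, 33.2, 31.9, 31.5 and 20.02 CPM in Kif2a_cKO 1 to 5, with Kif2a_cKO 5 and control 5 the lowest in their groups. The groups overlapped, with a log2 fold change of 0.03 (SE 0.138, unadjusted p = 0.849, adjusted p = 0.989) and a 95% interval of -17.2% to 25.3%. Efna5, a ligand known for sorting retinal axons in the midbrain, measured 11.01, 12.4, 9.91, 12.8 and 11.2 CPM in controls 1 to 5 and 14.1, 11.8, 12.6, 14.2 and 10.95 CPM in Kif2a_cKO 1 to 5. Control 3 was its lowest library, and the result was a log2 fold change of 0.16 (SE 0.102, unadjusted p = 0.150, adjusted p = 0.763). Efna3 had 6.82, 11.8 and 5.80 CPM in controls 1, 3 and 5, against 4.23 and 3.36 CPM in controls 2 and 4 and 3.71 to 5.09 CPM in Kif2a_cKO. Its log2 fold change was -0.54 (SE 0.278) in all libraries and 0.22 (SE 0.189, unadjusted p = 0.265) without controls 1, 3 and 5. For Efna2 it was -0.11 (SE 0.148) and for Efna4 -0.32 (SE 0.312). An antisense gene covers 14.1% of the exon bases of Efna3 and another covers 10.5% of those of Efna4, and since the strand setting of the counting is not given, their reads cannot be told apart.

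Slits and Robos, the ligands and receptors of sensory axon branching, showed no member at an unadjusted p under 0.05. Slit1, on chromosome 19 from 41600257 to 41743665 on the minus strand, measured 106, 156, 99.7, 133 and 119 CPM in controls 1 to 5 and 135, 149, 104, 143 and 89.01 CPM in Kif2a_cKO 1 to 5. Values in both groups ranged widely, from Kif2a_cKO 5 as the lowest to control 2 as the highest, with a log2 fold change of 0.02 (SE 0.157, unadjusted p = 0.919, adjusted p = 0.995) and a 95% interval of -20.2% to 28.2%. Slit2 measured 42.9, 47.7, 43.4, 41.1 and 37.3 CPM in controls 1 to 5 and 46.02, 25.5, 40.1, 35.7 and 37.5 CPM in Kif2a_cKO 1 to 5. Kif2a_cKO 2 stood below the other libraries, and the result was a log2 fold change of -0.20 (SE 0.128, unadjusted p = 0.144, adjusted p = 0.758). Without Kif2a_cKO 2 the log2 fold change of Slit2 was -0.09 (SE 0.0899, unadjusted p = 0.336), and over the 10 fits without 1 library it ran from -0.29 (unadjusted p = 0.0349, without Kif2a_cKO 1) to that value. Slit3 had 3.12 to 6.02 CPM in controls and 2.85 to 4.14 CPM in Kif2a_cKO, with a log2 fold change of -0.25 (SE 0.181).

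Robo2, the main Robo transcript here, lies on chromosome 16 from 73891839 to 74411825 on the minus strand. It measured 139, 194, 121, 161 and 152 CPM in controls 1 to 5 and 170.2, 159, 141, 177 and 147 CPM in Kif2a_cKO 1 to 5. Control 2 had the highest value and control 3 the lowest, so the Kif2a_cKO libraries lay inside the control range, with a log2 fold change of 0.05 (SE 0.116, unadjusted p = 0.647, adjusted p = 0.964) and a 95% interval of -12.7% to 23.5%. Robo1 measured 16.8, 16.1, 15.9, 12.8 and 16.9 CPM in controls 1 to 5 and 15.4, 14.2, 11.6, 14.8 and 13.5 CPM in Kif2a_cKO 1 to 5. Control 4 was well below the other 4 controls and within the Kif2a_cKO range, and the result was a log2 fold change of -0.18 (SE 0.101, unadjusted p = 0.101, adjusted p = 0.727). Without control 4 the log2 fold change of Robo1 was -0.25 (SE 0.0930, unadjusted p = 0.0197), the only one of the 10 such fits at an unadjusted p under 0.05. It was -0.13 (SE 0.0996, unadjusted p = 0.208) without Kif2a_cKO 3 and -0.06 (SE 0.138, unadjusted p = 0.674) without controls 1, 3 and 5. Robo3, a Robo of commissural axons that does not bind Slits in mammals, had 0 to 15 counts per library and was not tested. Slit1 and Robo2 both had the sign of their log2 fold change turned without controls 1, 3 and 5, to -0.22 (SE 0.188, unadjusted p = 0.266) and -0.16 (SE 0.117, unadjusted p = 0.207).

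Ntng1, which encodes netrin-G1, a netrin relative held on axons by a lipid anchor, was the member with a higher mean in Kif2a_cKO at an unadjusted p under 0.05. It lies on chromosome 3 from 109780040 to 110144011 on the minus strand and measured 36.8, 38, 28.3, 34.3 and 35.1 CPM in controls 1 to 5 and 41.5, 39.3, 37.1, 46.6 and 40.8 CPM in Kif2a_cKO 1 to 5. Of the 5 Kif2a_cKO libraries 4 were above each control, and Kif2a_cKO 3 lay between controls 1 and 2. Control 3, the library with the highest spinal cord score and the lowest summed sensory neuron level (13876 CPM), was the lowest. The means were 34.5 ± 3.75 CPM for controls against 41.1 ± 3.53 CPM for Kif2a_cKO (SD, n = 5 per group), a log2 fold change of 0.25 (SE 0.0876, unadjusted p = 0.0125, adjusted p = 0.703), a 1.19-fold difference. The unadjusted p was under 0.05 in each of the 10 fits that left out 1 library, with a log2 fold change between 0.17 and 0.28. With the spinal cord score as a covariate it was 0.23 (SE 0.0902, unadjusted p = 0.0239), and without controls 1, 3 and 5 it was 0.18 (SE 0.103, unadjusted p = 0.103).

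None of the other netrins had an edgeR unadjusted p under 0.05, and in limma-voom Ntn5 and Ntn1 did. Ntng2, which encodes netrin-G2, measured 34.1, 41.9, 23.2, 30.1 and 27.2 CPM in controls 1 to 5 and 39.3, 36.9, 31.8, 37.7 and 23.4 CPM in Kif2a_cKO 1 to 5. Its libraries were spread widely in both groups, with a log2 fold change of 0.11 (SE 0.168, unadjusted p = 0.512, adjusted p = 0.936), and 558 of its exon bases are shared with another gene on the same strand. Ntn5 had 3.28 to 4.57 CPM in controls and 3.74 to 5.04 CPM in Kif2a_cKO, with a log2 fold change of 0.28 (SE 0.134) in edgeR and 0.36 (SE 0.112, unadjusted p = 0.00625) in limma-voom, and 23.4% of its exon bases are shared with Sec1 on the opposite strand. Ntn1, the best known netrin, measured 10.7, 13.8, 18.9, 12.9 and 12.4 CPM in controls 1 to 5 and 10.1, 9.26, 8.28, 11.1 and 16.7 CPM in Kif2a_cKO 1 to 5. Controls were higher on average, but Kif2a_cKO 5 was the second highest of the 10 libraries, and the log2 fold change was -0.31 (SE 0.194). Without Kif2a_cKO 5 it was -0.52 (SE 0.151, unadjusted p = 0.00522, adjusted p = 0.699), the only one of the 10 fits without 1 library at an unadjusted p under 0.05. Over the 10 fits it ran from -0.52 to -0.19 with a highest p of 0.313, and limma-voom gave -0.32 (unadjusted p = 0.0390) in all libraries. Ntn3 and Ntn4, the latter a netrin of basement membranes, gave 0.14 (SE 0.118) and -0.00 (SE 0.115) on the log2 scale.

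Netrin receptors had lower means in Kif2a_cKO, with Unc5b at an unadjusted p under 0.05 in edgeR. Unc5b, a netrin receptor of axons and blood vessels on chromosome 10 from 60762593 to 60831581 on the minus strand, measured 14.4, 14.4, 20.9, 11.7 and 13.99 CPM in controls 1 to 5 and 11.1, 13.7, 8.94, 14.5 and 6.74 CPM in Kif2a_cKO 1 to 5. Kif2a_cKO 5 and 3 were the lowest libraries and control 3 the highest, while Kif2a_cKO 2 and 4 lay among the controls. The means were 15.1 ± 3.44 CPM for controls against 11 ± 3.24 CPM for Kif2a_cKO (SD, n = 5 per group), a log2 fold change of -0.45 (SE 0.207, unadjusted p = 0.0488, adjusted p = 0.703). Leaving out control 3 gave -0.32 (SE 0.194, unadjusted p = 0.123), and leaving out controls 1, 3 and 5 gave -0.24 (SE 0.262, unadjusted p = 0.372). For Unc5b limma-voom gave -0.27 (SE 0.165, unadjusted p = 0.122), and the spinal cord score as a covariate gave -0.37 (SE 0.213, unadjusted p = 0.110). The unadjusted p was under 0.05 in 4 of the 10 fits of Unc5b that left out 1 library. In edgeR with the replicate number as a block, Unc5b had -0.48 (SE 0.236, unadjusted p = 0.0834).

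Neo1 and Unc5a were the netrin receptors with the highest level per kb. Neo1, or neogenin, a relative of Dcc that also binds RGM proteins, lies on chromosome 9 from 58874687 to 59036441 on the minus strand and measured 44.5, 53.9, 42.7, 42.1 and 45.6 CPM in controls 1 to 5 and 39.1, 34.5, 30.2, 51.2 and 25.01 CPM in Kif2a_cKO 1 to 5. Kif2a_cKO 1, 2, 3 and 5 were below all 5 controls and Kif2a_cKO 4 lay above 4 of them. The means were 45.8 ± 4.75 CPM for controls against 35.99 ± 9.95 CPM for Kif2a_cKO (SD, n = 5 per group), a log2 fold change of -0.34 (SE 0.160, unadjusted p = 0.0532, adjusted p = 0.703). Without Kif2a_cKO 4, the most deeply sequenced library, the log2 fold change was -0.51 (SE 0.117, unadjusted p = 0.00098, adjusted p = 0.807), and without Kif2a_cKO 5 it was -0.25 (SE 0.131, unadjusted p = 0.0830). The unadjusted p was under 0.05 in 2 of the 10 fits of Neo1 that left out 1 library. Leaving out controls 1, 3 and 5 gave -0.41 (SE 0.236, unadjusted p = 0.114) for Neo1. Unc5a measured 9.73, 11.1, 18.4, 9.86 and 10.9 CPM in controls 1 to 5 and 10.5, 10.6, 7.41, 12.2 and 6.47 CPM in Kif2a_cKO 1 to 5. Control 3 alone stood high, and the result was a log2 fold change of -0.34 (SE 0.211, unadjusted p = 0.132, adjusted p = 0.747). For Unc5c the log2 fold change was -0.00 (SE 0.101), and for Unc5d it was -0.53 (SE 0.258).

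Dcc, the attractive netrin receptor, had the lowest level per kb of the members tested. It had 2.17, 4.72 and 2.96 CPM in controls 1, 3 and 5, 1.36 and 0.969 CPM in controls 2 and 4, and 1.14 to 2.17 CPM in Kif2a_cKO. Its log2 fold change was -0.48 (SE 0.364) in all libraries and 0.59 (SE 0.325, unadjusted p = 0.0996) without controls 1, 3 and 5.

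**Figure D3:**
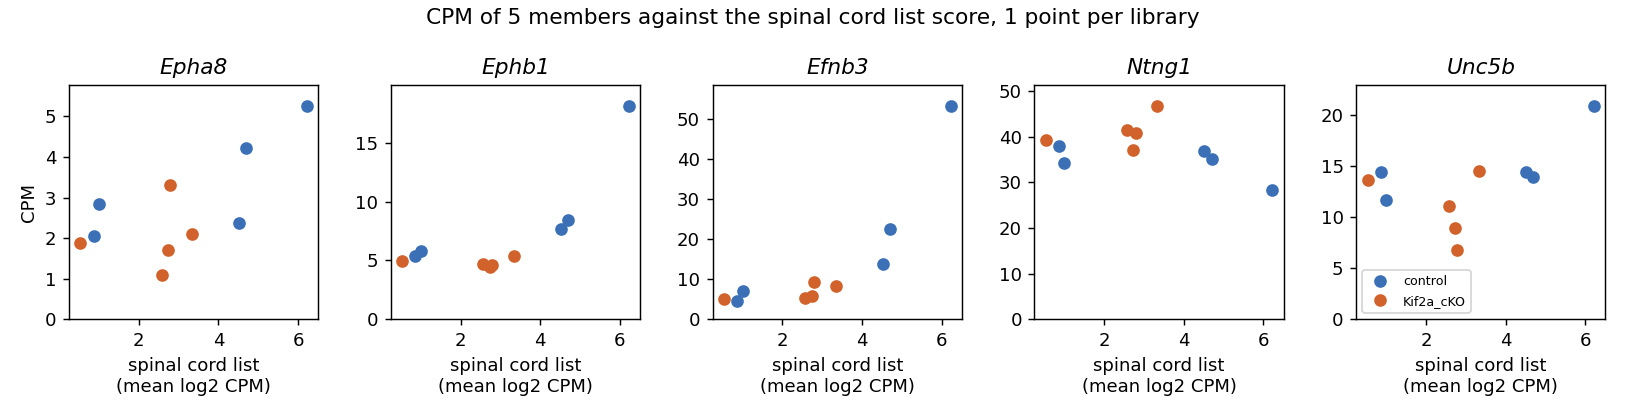
CPM of the 5 members at an unadjusted p under 0.05 against the mean log2 CPM of the 18 tested genes of the spinal cord list. Each point is 1 library, with controls in blue and Kif2a_cKO in orange. Efnb3 and Ephb1 are highest in controls 3, 5 and 1, the libraries on the right, and Ntng1 is lowest in control 3 at 28.3 CPM.

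Control 3 was the highest library for 14 of the 38 members (36.8%), against 18.4% of all genes tested, and the lowest for 6. The 14 with control 3 highest included Ephb1, Efnb3, Epha8, Unc5b, Efna3, Epha10, Unc5a, Unc5d and Dcc. Without controls 1, 3 and 5 the members lay below 0 in 25 of 38 cases with a median of -0.12, against 50.6% of all genes tested and a median of -0.00. With the spinal cord score as a covariate 29 of 38 were below 0 with a median of -0.09. Over all genes tested 49.9% were below 0 in that fit, with a median of 0.0004. There 3 members (Ephb1, Ephb6 and Ntng1) had an unadjusted p under 0.05, where 4.93% of all genes did. The score was higher in controls 1, 3 and 5 than in every Kif2a_cKO library, so the covariate and the group are not independent, and only 2 controls remain in the fit without those 3.

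**Figure D4:**
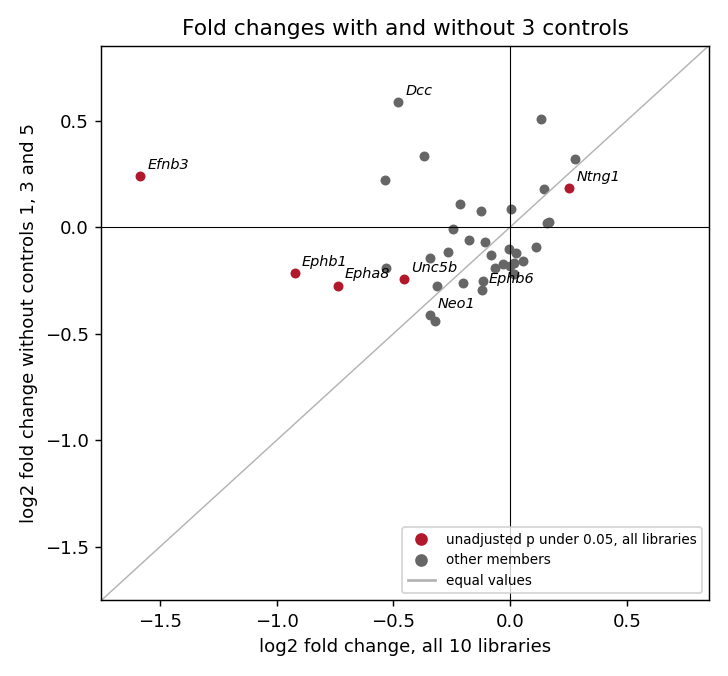
Log2 fold change of each tested member over all 10 libraries (horizontal) and without controls 1, 3 and 5 (vertical), with a grey line for equal values. Efnb3 moves from -1.58 to 0.24 and Dcc from -0.48 to 0.59, whereas Neo1 (-0.34 and -0.41) and Ntng1 (0.25 and 0.18) stay close to the line.

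Of 76 other genes of these pathways, intracellular partners, coreceptors and further ligands listed from general knowledge, 75 were tested, none was called, and 9 (12%) had an unadjusted p under 0.05, 8 lower and 1 higher in Kif2a_cKO, against 4.01% lower and 2.97% higher among all genes tested, of which 0.0172% were called. Of the 25 Eph and ephrin partners, 5 were lower and none higher at that level, and the median log2 fold change of the 25 was -0.05. Grip2, a PDZ scaffold related to a binding partner of ephrin-Bs, averaged 10.7 ± 2.74 CPM for controls against 6.78 ± 1.44 CPM for Kif2a_cKO (SD, n = 5 per group), with a log2 fold change of -0.66 (SE 0.185, unadjusted p = 0.00345). Sipa1l1, a Rap GTPase regulator that binds Epha4, averaged 64.4 ± 7.5 CPM for controls against 53.1 ± 3.83 CPM for Kif2a_cKO (SD, n = 5 per group), with a log2 fold change of -0.28 (SE 0.0841, unadjusted p = 0.00558). Both were highest in control 3, and without controls 1, 3 and 5 their log2 fold changes were -0.39 (unadjusted p = 0.0886) and -0.22 (unadjusted p = 0.0435).

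Among 21 tested Slit and Robo partners, 1 was lower and 1 higher at an unadjusted p under 0.05, with a median of 0.03. Sdc1, a heparan sulfate proteoglycan of the class that aids Slit binding, averaged 24.1 ± 1.72 CPM for controls against 21.3 ± 1.42 CPM for Kif2a_cKO (SD, n = 5 per group), with a log2 fold change of -0.17 (SE 0.0740, unadjusted p = 0.0362). Flrt3, a membrane protein that binds Unc5 receptors and Robo1, averaged 9.11 ± 1.06 CPM for controls against 11.4 ± 2.29 CPM for Kif2a_cKO (SD, n = 5 per group), with a log2 fold change of 0.33 (SE 0.142, unadjusted p = 0.0385). Leaving out controls 1, 3 and 5 gave -0.21 (unadjusted p = 0.0803) for Sdc1 and 0.30 (unadjusted p = 0.148) for Flrt3 on the log2 scale. Of 29 netrin partners, 2 were lower and none higher, with a median of -0.03. Lrrc4, which encodes the netrin-G2 ligand NGL-2, averaged 15.8 ± 2.60 CPM for controls against 12.96 ± 1.69 CPM for Kif2a_cKO (SD, n = 5 per group), with a log2 fold change of -0.29 (SE 0.124, unadjusted p = 0.0354). Lrrc4 was highest in control 3, and without controls 1, 3 and 5 its log2 fold change was -0.13 (unadjusted p = 0.397). Dscaml1, a relative of the netrin receptor Dscam, averaged 4.82 ± 3.06 CPM for controls against 2.82 ± 0.625 CPM for Kif2a_cKO (SD, n = 5 per group), with a log2 fold change of -0.78 (SE 0.352, unadjusted p = 0.0469). Its log2 fold change was 0.19 (unadjusted p = 0.470) without controls 1, 3 and 5. The adjusted p of all 6 of these named genes was 0.703 in edgeR.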

How the data were processed

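Polyadenylated RNA of 10 mouse dorsal root ganglion samples was sequenced, 5 per group, with groups and replicate numbers from the sample titles. The submitters' processing notes name cutadapt, STAR, DESeq2 and the mm10 build. How reads were counted, against which annotation and with which strand setting is not given in the sources used here. Gene-level raw counts were deposited by the authors. They also deposited a normalized signal (counts divided by a size factor), a regularized log2 value, and the log2 fold change, p-value and false discovery rate of their own comparison.

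The counts of both groups entered an edgeR 4.0.16 fit (R 4.3.3): filterByExpr (minimum count 10, minimum total 15), TMM factors from 0.957 to 1.05, and a robust quasi-likelihood F test on the group, with Benjamini-Hochberg adjustment over 17439 genes. The SE is the log2 fold change divided by the square root of F. Alternatives used DESeq2 1.42.0, limma 3.58.1 (voom with quality weights), other scalings and filters, the replicate number as a block, and libraries left out. Another used as a covariate the mean log2 CPM (prior count 2) of the 18 tested genes of the spinal cord list. Positions and exon lengths are from GENCODE release 21 for mouse (GRCm38, 97.6% of symbols matched, all 40 members), and promoter sequences from RefSeq.

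Full values are given for members with an unadjusted p under 0.05 or without overlap of the groups, and for the 2 most abundant per kb of each family. Others are given briefly. Of the other pathway genes, the 2 with the lowest p per list are named. The members and lists were chosen with earlier results of these data known. Replicates of a group differed by more than sampling noise (lowest chi-square 9.85 per gene).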

Additional observations from a re-analysis of the deposited data

Results flagged for a closer look

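In 5 of 76 groups of 5 libraries (38 members in 2 groups) 1 library stood apart from the other 4 by more than 0.71 of the range of the group, a limit that chance passes in about 1 of 20 groups. Control 3 stood above the other controls for Ephb1 (18.1 CPM) and for Unc5a (18.4 CPM). Control 4 stood below the other controls for Robo1 (12.8 CPM). Kif2a_cKO 5 stood below the other Kif2a_cKO libraries for Ntn3 (4.99 CPM) and for Ntn5 (3.74 CPM).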

How the results depend on the processing

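All 20 members described in full stayed uncalled under each alternative run, and 163 of their 180 values outside the fits that left out 1 library kept their sign. edgeR called 3 genes over the whole table, DESeq2 called 39, and 0 were called with at least 1 CPM in 5 libraries, with the replicate number as a block, or without controls 1, 3 and 5 (1217 at an unadjusted p under 0.05 in all libraries and 604 in the last). The count of members at an unadjusted p under 0.05, 5 in edgeR, was 8 in DESeq2 and 3 with the replicate block. It was 3 with the spinal cord score and 1 without controls 1, 3 and 5, and Ephb6, in both of these, was not among the 5. The count of other pathway genes went from 9 to 4 in that last fit, which has 2 controls. Of these 4, Sipa1l1 was among the 9, while Dag1, Grb10 and Nell2 were not. Grb10 and Nell2 were higher in Kif2a_cKO in that fit. When 1 library at a time was left out, the genes called ran from 0 to 3, the members called were 0, the members at an unadjusted p under 0.05 ran from 2 (without control replicate 5) to 8 (without control replicate 4), the members below 0 from 24 to 30, the median from -0.15 to -0.09, and the other pathway genes from 5 to 11. The cause of these differences was not tested.

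Signs turned mostly in members near 0. Ephb4 (0.00 in all libraries) had -0.0077 in DESeq2, -0.0867 in limma-voom, -0.00406 with median-of-ratios scaling, -0.0291 with library totals, -0.00281 with no filter, -0.0115 with at least 1 CPM in 5 libraries and -0.00496 with the replicate block. With library totals Efna1 had -0.00966 and Slit1 -0.017. With the spinal cord score Efna1 had -0.0392, Slit1 -0.0799 and Robo2 -0.0113. Without controls 1, 3 and 5 Efnb3 had 0.24, Efna1 -0.12, Slit1 -0.22, Robo2 -0.16 and Ntng2 -0.0926. Leaving out 1 library moved Ephb4 between -0.10 and 0.0727, Efna1 between -0.0539 and 0.12, Efnb2 between -0.0883 and 0.0129, Slit1 between -0.064 and 0.10, and Robo2 between -0.0354 and 0.14. The labels do not say that a replicate number marks a shared litter or day, though same-numbered samples have adjoining sample numbers in their titles. The deviations of same-numbered libraries correlated at 0.177, 0.367, 0.140, -0.147 and 0.252 for numbers 1 to 5, so 4 of 5 pairs and not all were over 0.1, and 3 of 5 controls correlated best with their own number, a hint of pairing from the data. With the replicate block Epha8, Ephb1 and Ntng1 had an unadjusted p under 0.05. Depth limits most the members with the fewest reads: Epha1 and Robo3, which were not tested, and Efna4, with 18 to 57 counts per library.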
